A study of Rattus norvegicus with 12 samples.

Results

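Transcript levels of the transcription factors that define the hepatocyte were followed in rat liver during regeneration. The factors were HNF4A, FOXA1, FOXA2, FOXA3, ONECUT1, PROX1, CEBPA, CEBPB and CEBPD, chosen by gene symbol and not by their values. Of these 9 genes, 8 were matched by symbol among the 14692 genes listed, all 8 passed the filter on low values, and CEBPD was not analysed here. Whole liver of male Sprague Dawley rats aged 4 to 5 months was sequenced at 0, 4, 12 and 24 h after partial hepatectomy (PH), the surgical removal of most of the liver. Control rats had a sham operation on the bile duct 24 h before PH. BF rats had a biliary fistula from 24 h before PH, which drains bile to the outside and empties the bile acid (BA) pool. The third group, BF + BA, had the fistula together with sodium taurocholate, a bile acid, infused into the duodenum from 12 h before PH. Rats of all 3 groups carried a duodenal catheter with a saline infusion.

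Values are RPKM, reads divided by transcript length and by the mapped reads of a library, so that levels of different genes can be set side by side per length. Each of the 12 columns, 1 for each group and time, is the authors' combination of 2 runs, the first from 1 rat and the second from pooled RNA of 3 rats, and so gives no spread between rats. Read numbers per column are unknown. Groups follow the sample titles as the study uses them (BF for drained rats, BA for drained rats with infusion); the descriptions attached to the samples swap both names, so that which of these groups received the infusion remains uncertain, while Control and the time points do not depend on it. Time effects were tested over the 3 groups and group effects over the 4 times, with limma on log2(RPKM + 1) in all 8459 genes that averaged 1 RPKM or more, and a change was called at an adjusted p under 0.05 (Benjamini-Hochberg). Such a test sets a change against the spread between groups or times, so a response of 1 group at 1 time is counted as spread and not as an effect. Differences between single columns are given as values, with no test, and RPKM ratios of at least 2-fold are judged after adding 1 RPKM to each value.

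The liver factors work as a network in which each binds the regulatory DNA of many liver genes and of the other factors. HNF4A is a nuclear receptor at its centre, the FOXA proteins are pioneer factors that open chromatin at liver enhancers, ONECUT1 (HNF6) acts with them in hepatocytes and bile ducts, and PROX1 is a homeobox factor needed for hepatoblasts to spread during development. C/EBPα, the product of CEBPA, is high in the quiescent hepatocyte and restrains its division, whereas C/EBPβ, the product of CEBPB, is an early response factor of liver injury and of the acute phase. The balance between these C/EBP proteins is classically followed after PH.

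The promoters of 5 members were in the RefSeq table used here (assembly GRCr8), and FOXA1, ONECUT1 and PROX1 were not matched in it. Those shown belong to the pair of C/EBP genes compared below and to the genes in which the binding letters of another member, ONECUT1, were found. Each line gives the 250 bases before the annotated start, 5′ to 3′ on the strand of the gene, with the letters of the searched motifs in capitals.
CEBPA (chr1:96896334-96896583, plus strand): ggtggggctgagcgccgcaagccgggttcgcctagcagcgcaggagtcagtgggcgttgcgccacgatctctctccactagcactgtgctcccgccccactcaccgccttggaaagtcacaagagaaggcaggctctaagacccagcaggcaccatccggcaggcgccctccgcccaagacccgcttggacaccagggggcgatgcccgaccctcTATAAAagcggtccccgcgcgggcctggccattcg
CEBPB (chr3:176816755-176817004, plus strand): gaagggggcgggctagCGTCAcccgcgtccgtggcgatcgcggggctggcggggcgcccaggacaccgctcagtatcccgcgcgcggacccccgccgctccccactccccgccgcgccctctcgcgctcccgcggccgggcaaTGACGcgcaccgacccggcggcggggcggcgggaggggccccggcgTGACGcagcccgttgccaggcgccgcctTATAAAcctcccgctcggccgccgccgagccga
FOXA2 (chr3:155927509-155927758, minus strand): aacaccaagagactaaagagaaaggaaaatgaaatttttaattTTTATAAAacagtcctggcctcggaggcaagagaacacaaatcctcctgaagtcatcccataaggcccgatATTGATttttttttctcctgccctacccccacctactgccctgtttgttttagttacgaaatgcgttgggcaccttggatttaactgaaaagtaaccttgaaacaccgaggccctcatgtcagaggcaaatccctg
HNF4A, the more upstream of its 2 annotated starts (chr3:172605970-172606219, plus strand): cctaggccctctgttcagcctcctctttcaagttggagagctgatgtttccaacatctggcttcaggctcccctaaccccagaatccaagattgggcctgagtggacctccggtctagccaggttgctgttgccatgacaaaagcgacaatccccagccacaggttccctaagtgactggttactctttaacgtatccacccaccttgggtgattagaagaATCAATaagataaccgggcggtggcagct
The 6 motifs searched on both strands were the HNF6 core ATCAAT, the FOX core TGTTTAC, the C/EBP palindrome TTGCGCAA, the STAT3 site TTCNNNGAA, the half-site of the cyclic AMP response element TGACG and the TATA box TATAAA. In FOXA2 the HNF6 core lay 136 to 131 bases before the start, read on the other strand as ATTGAT, and a pair of overlapping TATAAA matches lay between 207 and 200 bases before it. In HNF4A the HNF6 core lay 29 to 24 bases before the more upstream start, and which start the liver used was not measured. This core was present in 7.1% of the 33469 rat promoter windows of the same length. The CEBPB window held TGACG 3 times, beginning 234 bases (as CGTCA, on the other strand), 107 bases and 61 bases before the start, against 18.2% of all windows with at least 1 match, and a TATA box 33 to 28 bases before it. Bases G and C made up 80.0% of this window, against a median of 51.2% over all windows. The share was not matched for base content, and windows with 3 matches were not counted. In the CEBPA window the TATA box, 35 to 30 bases before the start, was the only match, and 12.9% of all windows held one. The FOX core (3.21% of all windows), the C/EBP palindrome (0.14%) and the STAT3 site (7.67%) were in none of the 6 member windows. FOXA3 had a TATA box alone, and the window of the other HNF4A start had no match.

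The order of levels was led by HNF4A, the most abundant of the 8 transcripts in 12 of 12 columns, with a median of 163 RPKM. It was followed by CEBPA (median 47.2 RPKM), FOXA3 (37.9 RPKM), CEBPB (36.6 RPKM), ONECUT1 (24.4 RPKM), PROX1 (20.1 RPKM), FOXA1 (14.6 RPKM) and FOXA2 (7.3 RPKM). The ranges over the columns of every pair of neighbours in this order overlapped except HNF4A and CEBPA, whose values lay between 118 and 218 RPKM and between 26.1 and 111 RPKM. The spread over the columns also differed between members. PROX1 had a coefficient of variation of 12.4% over the 12 columns, HNF4A 15.3% and FOXA1 17.0%, below the median of 26.2% over all genes tested. FOXA3 was at 25.9%. CEBPA (49.0%), ONECUT1 (59.5%), CEBPB (67.6%) and FOXA2 (81.2%) lay above the upper quartile of 38.6%.

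**Figure D1:**
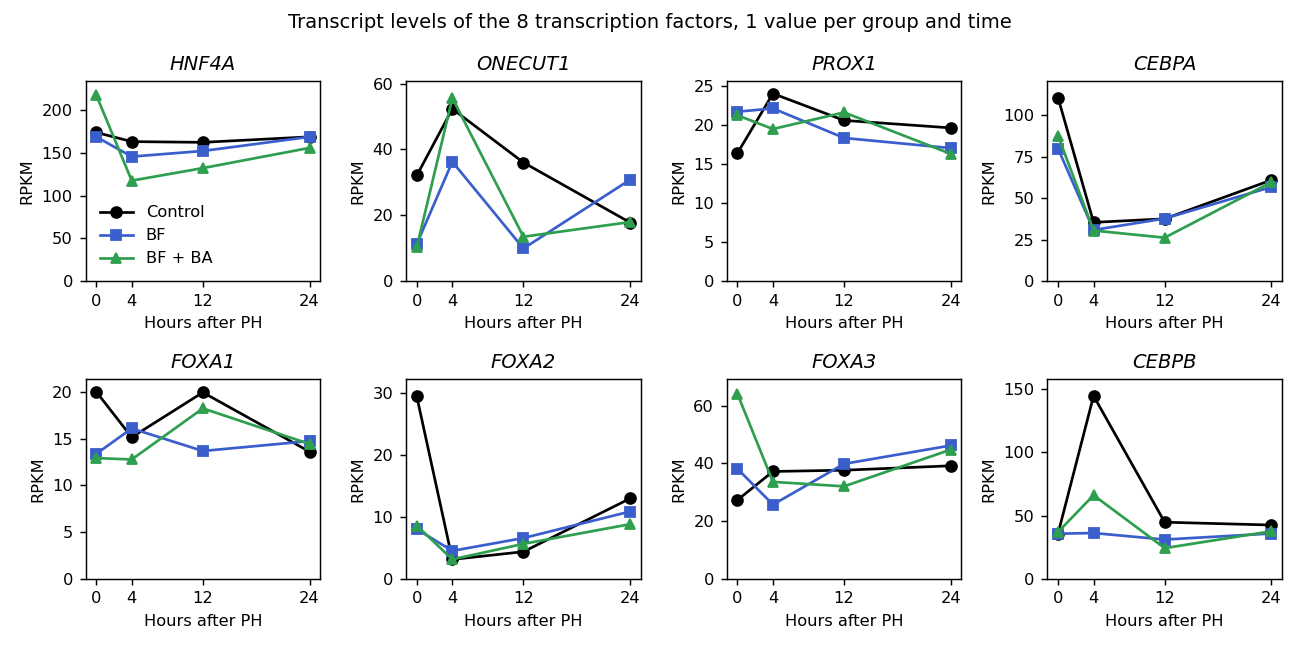
RPKM of the 8 transcription factors (vertical axes, starting at 0) against hours after PH (horizontal axes) in Control, BF and BF + BA, 1 point per column with no error bar. CEBPA and FOXA2 are lower at 4 h than at 0 h in all 3 groups, CEBPB peaks at 145 RPKM in Control at 4 h, and HNF4A stays between 118 and 218 RPKM.

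HNF4A, the receptor that holds the adult hepatocyte programme, was called at no time with the values as deposited, though it was lower after PH than at 0 h in each group. In Control it was at 174 RPKM at 0 h, 163 at 4 h, 162 at 12 h and 169 at 24 h. In BF it was at 169, 146, 152 and 169 RPKM at the same times. In BF + BA it went from 218 RPKM at 0 h to 118 at 4 h, 132 at 12 h and 156 at 24 h, the widest course of the 3 groups. The 3 values at 4 h lay below the 3 values at 0 h, without overlap, and so did those at 12 h and at 24 h, although BF at 0 h and Control at 24 h nearly touched. Over the groups the change at 4 h was -0.40 on the log2 scale (SE 0.15, 95% interval from -0.73 to -0.06), with an adjusted p of 0.0525 by limma, and was not called. It was -0.32 (adjusted p = 0.126) at 12 h and -0.18 (adjusted p = 0.374) at 24 h. Without the BF + BA column at 4 h the change at 4 h was -0.27 (adjusted p = 0.203 by limma), and without the whole group -0.15. The 5 genes with the pattern most like that of HNF4A over the 12 columns, of 6119 genes that averaged 5 RPKM or more, were SLC25A1 (the mitochondrial citrate carrier), GCGR (the glucagon receptor), NAGS (N-acetylglutamate synthase of the urea cycle), KLHL7 and TBC1D14, with Pearson r from 0.851 to 0.895. All 5, like HNF4A itself, were lowest in the BF + BA column at 4 h.

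That column stood apart from the rest. Its RPKM values summed to 982826, against at most 785092 in the others, and albumin (ALB) was listed at 303637 RPKM, so that the 10 most abundant genes took 53.2% of it against at most 41.0% elsewhere. The BF column at 12 h held transcripts of pancreatic acinar cells, with a sum of 133.6 RPKM over 8 markers against at most 23.3 RPKM in any other column. Hepatocyte markers were abundant in every column, at a sum of at least 71531 RPKM over the 5 of 6 found. Without the BF + BA column at 4 h, 33.1% of all genes tested were called at 4 h in place of 45.2%. Calls of members and of named genes that were lost without either column are stated with their results.

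Of the FOXA family only FOXA2 passed the test, at 4 h. FOXA2 was at 29.5 RPKM in Control at 0 h and at 3.13, 4.38 and 12.99 RPKM at 4, 12 and 24 h. In BF it was at 8.02 RPKM at 0 h and then at 4.52, 6.59 and 10.9 RPKM. In BF + BA it was at 8.6 RPKM at 0 h, followed by 3.14, 5.65 and 8.83 RPKM. FOXA2 was thus lowest at 4 h in each of the 3 groups, and only Control started high. The values at 4 h and those at 12 h lay below all values at 0 h. The fall at 4 h was -1.60 on the log2 scale (SE 0.38, adjusted p = 0.00847 by limma, lower in 3 of 3 groups), a 3.04-fold change after adding 1 RPKM. Without Control it was -0.96 (adjusted p = 0.00891), and without BF + BA -1.80 with an adjusted p of 0.0563, by the same test. At 12 h the difference was -1.09 (adjusted p = 0.0536) and at 24 h -0.23 (adjusted p = 0.656), neither of them called.

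FOXA1 and FOXA3 passed the test at no time. FOXA1 in Control was at 20.0, 15.2, 20.0 and 13.6 RPKM from 0 to 24 h. It ranged from 13.4 to 16.1 RPKM in BF and from 12.8 to 18.2 RPKM in BF + BA, and adjusted p-values over the 3 times were from 0.48 to 0.831. FOXA3 was at 27.3, 37.2, 37.6 and 39.1 RPKM in Control, at 38.1, 25.7, 39.8 and 46.2 RPKM in BF and at 64.1, 33.6, 32.0 and 44.7 RPKM in BF + BA. After 0 h the FOXA3 values were thus higher than at 0 h in Control and lower in BF + BA, and the time effects were between -0.34 and 0.09 on the log2 scale with adjusted p-values from 0.296 to 0.808. FOXA3 was the most abundant FOXA transcript in 11 of 12 columns and FOXA2 the least abundant in 11 of 12. The exception to both was Control at 0 h, where FOXA2 gave 38.4% of the summed RPKM of the 3 genes. At 4 h its share was 5.64% for Control, 9.76% for BF and 6.35% for BF + BA, and at 24 h 19.8%, 15.2% and 13.0%.

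**Figure D2:**
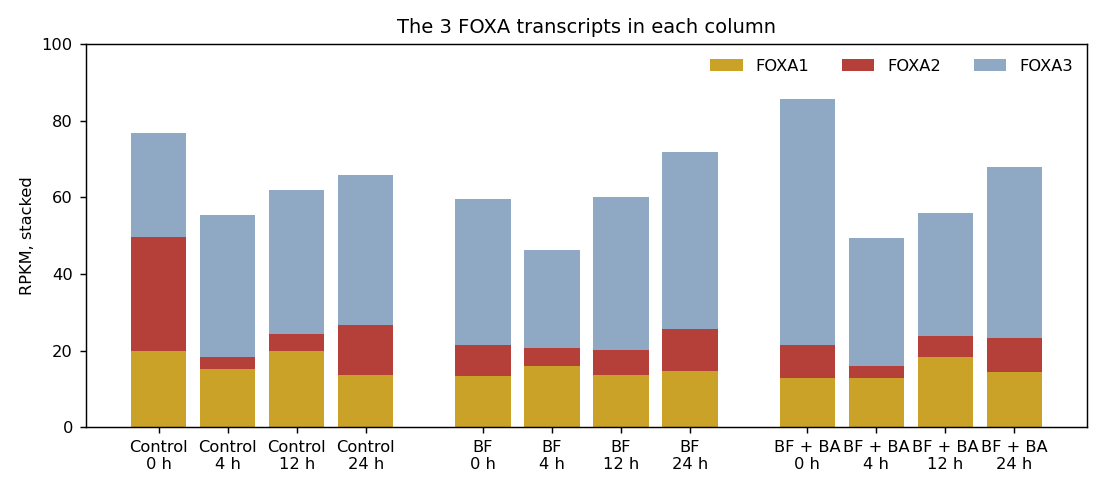
Summed RPKM of FOXA1, FOXA2 and FOXA3 (vertical axis, stacked bars starting at 0) in each of the 12 columns. The FOXA2 segment makes up 38.4% of the bar of Control at 0 h and between 5.64% and 19.8% of the other bars.

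ONECUT1 was raised at 4 h. In Control it was at 32.1 RPKM at 0 h, 52.3 at 4 h, 36.0 at 12 h and 17.8 at 24 h. In BF the values were 11.3, 36.3, 9.91 and 30.8 RPKM, and in BF + BA 10.3, 55.6, 13.5 and 18.0 RPKM. Each group had its highest value at 4 h, and all 3 of these lay above the 3 values at 0 h. The rise over the groups was 1.54 on the log2 scale (SE 0.42, adjusted p = 0.0164 by limma, higher in 3 of 3 groups). It was 1.24 (adjusted p = 0.0794) when the BF + BA column at 4 h was left out, 1.51 (adjusted p = 0.055) without BF and 1.15 (adjusted p = 0.185) without BF + BA by the same test. Without Control the rise was larger, at 1.96 (adjusted p = 0.00708). The levels at 12 h and 24 h overlapped with those at 0 h, with adjusted p-values of 0.854 and 0.444. At 4 h ONECUT1 rose while FOXA2 fell, and over the 12 columns their Pearson r was -0.309. A link with the HNF6 core, found above in windows of FOXA2 and HNF4A, was not tested.

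PROX1 was the steadiest of the 8. Its values were 16.4, 24.0, 20.6 and 19.6 RPKM in Control, 21.7, 22.1, 18.3 and 17.0 RPKM in BF and 21.2, 19.5, 21.6 and 16.3 RPKM in BF + BA. The highest and the lowest column differed by 1.47-fold, and limma gave adjusted p-values of 0.432, 0.872 and 0.438 at 4, 12 and 24 h. Its coefficient of variation stood at percentile 3.9 of those of all genes tested. PROX1 also marks lymphatic endothelium, whose other markers (PDPN, FLT4 and LYVE1) summed to between 25.9 and 46.9 RPKM, and its highest column, Control at 4 h, was also the highest of that sum. Nearly all of the sum was LYVE1 (43.2 of 46.9 RPKM in that column), which sinusoidal endothelium of the liver also expresses, whereas FLT4 was highest in BF at 0 h (4.79 RPKM) and PDPN in BF at 4 h (1.44 RPKM). The part of these cells in the level of PROX1 was not tested. The genes with the pattern most like that of PROX1 were CIDEC, TDO2, PIM1, MT1A and IRAK4, at lower Pearson r (0.697 to 0.789) than those of HNF4A.

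CEBPA fell after PH in every group and had not returned at 24 h. In Control it was at 111 RPKM at 0 h and at 35.4, 37.5 and 60.8 RPKM at 4, 12 and 24 h. In BF it was at 79.8, 30.8, 37.7 and 56.7 RPKM, and in BF + BA at 87.6, 30.5, 26.1 and 59.6 RPKM. No value after PH reached the lowest value at 0 h, and the 3 values at 24 h lay within 56.7 to 60.8 RPKM, above all those at 4 h and 12 h. The change was -1.49 on the log2 scale at 4 h (SE 0.14, adjusted p = 0.000283 by limma), -1.43 at 12 h (adjusted p = 0.000354) and -0.63 at 24 h (adjusted p = 0.00787), lower in 3 of 3 groups each time. CEBPA was called at 4 h and 12 h under each of the 12 alternative settings. At 24 h the call was lost without Control, where the change was -0.52 with an adjusted p of 0.118 by limma, and the change became -0.96 (adjusted p = 0.00203) when each column was divided by its median.

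The genes whose pattern was most like that of CEBPA were PVRL2 (nectin-2, a cell adhesion receptor; r = 0.989), RGD735112, RGD1310660, SNRK (a kinase related to AMP-activated kinase) and CCDC107, with r of at least 0.948 over the 12 columns. SNRK went from its highest value of 8.11 RPKM in Control at 0 h to its lowest of 3.15 RPKM in BF + BA at 12 h, the columns that were also highest and lowest for CEBPA.

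CEBPB rose at 4 h, and the size of the rise differed between the columns. In Control it was at 35.7 RPKM at 0 h, 145 at 4 h, 44.8 at 12 h and 42.5 at 24 h. In BF it stayed at 35.7, 36.2, 31.1 and 35.8 RPKM. In BF + BA it was at 37.0, 66.2, 24.3 and 37.6 RPKM. The 3 groups started within 35.7 to 37.0 RPKM, and at 4 h they were far apart, with BF inside the range of the values at 0 h. The RPKM ratio of 4 h to 0 h came to 4.06 for Control, 1.79 for BF + BA and 1.01 for BF. Over the groups the rise was 0.94 on the log2 scale (SE 0.32, adjusted p = 0.0382 by limma, higher in 3 of 3 groups). It was 0.42 (adjusted p = 0.272) without Control, 1.01 (adjusted p = 0.151) without BF + BA and 0.92 (adjusted p = 0.105) without the BF + BA column at 4 h by the same test. At 12 h and 24 h the values overlapped with those at 0 h (adjusted p = 0.744 and 0.844). The genes most like CEBPB over the 12 columns were WASL (an actin regulator; r = 0.951), BACH1 (a repressor of heme oxygenase; r = 0.93), SDC4 (syndecan-4), LPIN1 (lipin-1) and PAQR3, and each of the 5 was highest, as CEBPB was, in Control at 4 h.

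Set against each other, the C/EBP transcripts changed their order after PH. CEBPA exceeded CEBPB in 8 of 12 columns, among them all 3 at 0 h and all 3 at 24 h, and CEBPB was the higher of both in all 3 columns at 4 h and in Control at 12 h. In Control the ratio of CEBPB to CEBPA, after adding 1 RPKM, was 0.329 at 0 h, 4.01 at 4 h, 1.19 at 12 h and 0.704 at 24 h. In BF it was 0.454, 1.17, 0.829 and 0.639, and in BF + BA 0.429, 2.14, 0.931 and 0.637. The log2 ratio changed from 0 h by 2.43 ± 1.12 (SD over the 3 groups) at 4 h, by 1.28 ± 0.51 at 12 h and by 0.72 ± 0.33 at 24 h. In BF the shift at 4 h rested on CEBPA, since CEBPB was at 35.7 and 36.2 RPKM, while in Control both transcripts moved.

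**Figure D3:**
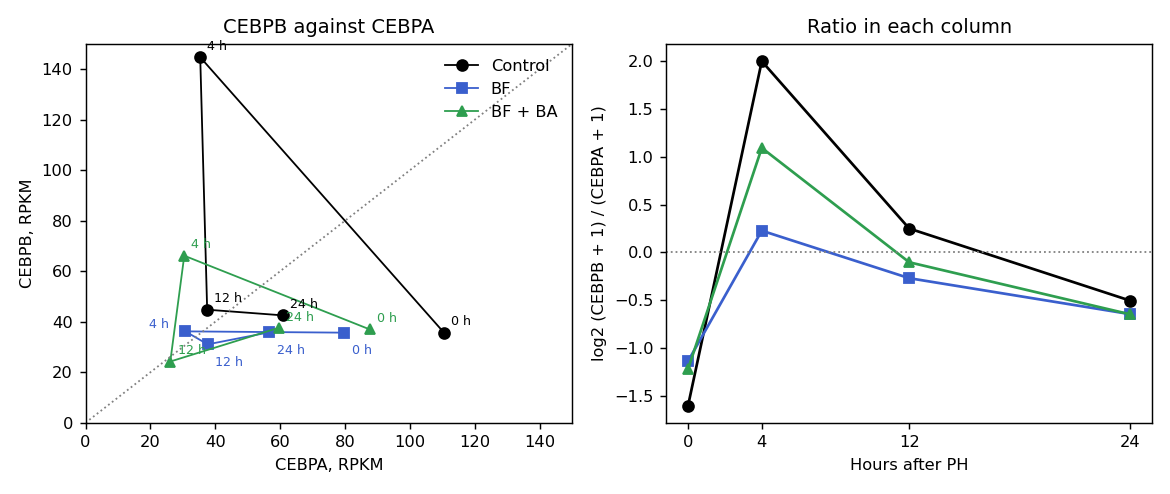
Left, CEBPB against CEBPA in RPKM for the 12 columns, joined in order of time within each group, with a dotted line where both are equal. Right, log2 of the ratio of CEBPB to CEBPA (after adding 1 RPKM) against hours after PH; the ratio is below 0 on this scale at 0 h and 24 h in all 3 groups and above it at 4 h, from 0.23 in BF to 2.00 in Control.

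Within a group, the members at least 2-fold from their own 0 h column were most at 4 h. In Control they were CEBPA, CEBPB and FOXA2 at 4 h (3 of 8, with 9.2% of all genes tested 2-fold apart in those columns), CEBPA and FOXA2 at 12 h (2 of 8, 13.9%) and FOXA2 at 24 h (1 of 8, 11.3%). In BF they were CEBPA and ONECUT1 at 4 h (2 of 8, 12.0%), CEBPA at 12 h (1 of 8, 7.61%) and ONECUT1 at 24 h (1 of 8, 11.1%). In BF + BA they were CEBPA, FOXA2 and ONECUT1 at 4 h (3 of 8, 17.8%), CEBPA at 12 h (1 of 8, 7.06%) and 0 of 8 at 24 h (5.24%). CEBPA was thus past 2-fold in all 3 groups at 4 h and 12 h. With columns rescaled without their 10 most abundant genes it was under 2-fold in BF at 12 h. CEBPB was past 2-fold in Control alone (with columns divided by their median, in BF + BA at 4 h as well) and ONECUT1 at 4 h in the groups with a fistula. Differences between groups in these changes were not tested, with 1 column each.

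Across the 8 members, 4 were called at 4 h, CEBPB and ONECUT1 higher and CEBPA and FOXA2 lower. By the same rule 45.2% of all genes tested were called at that time, 12.9% higher and 32.3% lower, so the share of the members was near that of all genes. Values at 4 h and 0 h did not overlap for 4 members, against 47.2% of all genes tested. At 12 h only CEBPA was called, with 31.4% of all genes tested called (8.95% higher and 22.5% lower), and 3 members (HNF4A, FOXA2 and CEBPA) did not overlap, against 44.9%. At 24 h again only CEBPA was called, beside 36.2% of all genes tested, most of which were higher (30.6%) and few lower (5.62%). At this time 2 members, HNF4A and CEBPA, did not overlap with 0 h, against 49.5% of all genes tested.

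The columns also moved as a whole. The median log2 change of all genes tested was -0.20 at 4 h, -0.12 at 12 h and 0.21 at 24 h. Of all genes called, 28.5% were higher at 4 h, 28.5% at 12 h and 84.5% at 24 h; with each column divided by its median these shares were 41.7%, 48.8% and 37.5%, and with columns rescaled without their 10 most abundant genes 38.0%, 59.5% and 86.3%. When each column was divided by its median, the 4 calls at 4 h and that of CEBPA at 12 h were kept, and at 24 h HNF4A (-0.51, adjusted p = 0.021 by limma) and PROX1 (-0.47, adjusted p = 0.0377) were lower together with CEBPA.

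**Figure D4:**
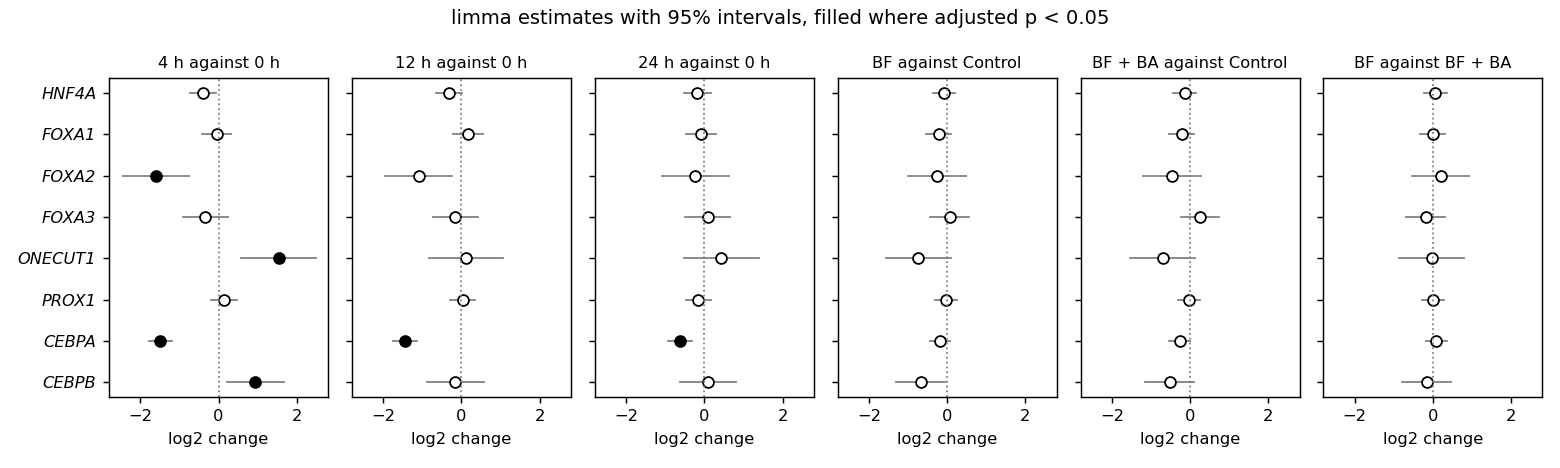
log2 change (horizontal axes) with its 95% interval from limma for the 8 members in the 3 comparisons of time, over 3 groups, and the 3 comparisons of groups, over 4 times; filled points passed an adjusted p of 0.05. CEBPA is filled at all 3 times, FOXA2, ONECUT1 and CEBPB at 4 h, and no point is filled in the comparisons of groups.

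No member passed the test between groups over the 4 times. Of the 8 members 0 were called by limma in BF against Control, where 0.851% of all genes tested were called (41.7% of these higher, and 65.5% with each column divided by its median), and the lowest adjusted p was 0.202. In BF + BA against Control it was 0 of 8, with 0.0709% of all genes tested called and a lowest adjusted p of 0.217, and in BF against BF + BA it was 0 of 8, with 0.0118% called and a lowest adjusted p of 0.828. At an unadjusted p under 0.05 there was 1 member in BF against Control, which was CEBPB, 1 in BF + BA against Control, which was CEBPA, and 0 in BF against BF + BA. The 95% intervals of the group differences varied in width between members. For CEBPB the difference of BF from Control was -0.68, with an interval from -1.31 to -0.05 on the log2 scale, and for ONECUT1 -0.74, with an interval from -1.56 to 0.09. For HNF4A the interval reached from -0.36 to 0.21 in BF against Control, and for PROX1 from -0.30 to 0.26. That of CEBPA, though variable over the columns, reached from -0.45 to 0.08 in the same comparison. No member had values free of overlap between groups, against 2.14% of all genes tested for BF and 2.41% for BF + BA, each against Control, and 0.284% for BF against BF + BA.

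Single columns did differ between groups, and they share the Control columns. Before PH, at 0 h, FOXA2 was at 29.5 RPKM in Control against 8.02 in BF and 8.6 in BF + BA, ratios of 3.68 and 3.43. ONECUT1 at 0 h was at 32.1 RPKM in Control against 11.3 in BF and 10.3 in BF + BA, which is 2.85 and 3.12 times as high in Control. FOXA3 went the other way at 0 h, with 27.3 RPKM for Control, 38.1 for BF and 64.1 for BF + BA. Both groups with a fistula were thus lower than Control for FOXA2 and ONECUT1 before the liver was resected. By the 2-fold rule 2 of 8 members differed at 0 h in BF against Control, where 3.89% of all genes tested did, and 3 of 8 in BF + BA against Control, where 4.02% did. CEBPA was also highest in Control at 0 h, by 1.38 times over BF and 1.26 times over BF + BA, which is under that rule.

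At 4 h CEBPB was the only member past 2-fold. Control was 4.00 times BF, with 4.35% of all genes tested past 2-fold in that pair of columns, and 2.19 times BF + BA, with 7.28%. When the columns were divided by their medians or rescaled without their 10 most abundant genes, CEBPB in BF + BA was within 2-fold of Control. At 12 h ONECUT1 was the only one, at 36.0 RPKM in Control against 9.91 in BF and 13.5 in BF + BA (3.52% and 1.71% of all genes tested past 2-fold). At 24 h 0 of 8 members were 2-fold apart in either group against Control, beside 2.08% and 2.05% of all genes tested. BF and BF + BA were within 2-fold of each other for all 8 members at each of the 4 times, with 1.82%, 4.72%, 1.92% and 1.86% of all genes tested beyond it at 0, 4, 12 and 24 h.

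Other genes of the liver transcription factor network, a list of 18 of which 16 were tested, were called lower more often than higher at 4 h and 12 h, but not at 24 h. At 4 h 9 of 16 were called lower and 1 higher, beside 32.3% and 12.9% of all genes tested, with a median of -0.83 on the log2 scale against -0.20 for all genes tested. Without the BF + BA column at 4 h, 8 were lower and 2 higher, beside 22.7% and 10.3% of all genes tested. NR1I3 (CAR, a sensor of foreign compounds) fell by 3.37, with an adjusted p of 0.00115 by limma. It had 77.8, 56.6 and 24.0 RPKM at 0 h (Control, BF, BF + BA) and 10.2, 2.37 and 1.7 RPKM at 4 h. NR0B2 (SHP, a repressor induced by bile acids) fell by 2.43 at 4 h and by 3.83 at 12 h, when all 3 groups were at or under 1.21 RPKM. NR1H4 (FXR, the nuclear receptor for bile acids) fell by 1.44 at 4 h and by 0.87 at 12 h, both called, though the call at 12 h was lost with columns rescaled without their 10 most abundant genes (-0.66, adjusted p = 0.0522 by limma). PPARGC1A, a coactivator of HNF4A that is induced by fasting, was the single gene called higher, by 1.87, from at most 1.42 RPKM at 0 h to between 4.35 and 10.4 RPKM at 4 h.

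At 12 h 8 of 16 network genes were called lower and 0 higher, beside 22.5% and 8.95% of all genes tested, with a median of -0.53 against -0.12. With columns divided by their median 6 were lower, beside 16.6% of all genes tested. With columns rescaled without their 10 most abundant genes 3 were lower, beside 12.4%. The third largest fall after NR0B2 and NR1I3 (-2.12) was that of PPARA (-1.68). From 0 h to 12 h PPARA went from 30.49 to 3.91 RPKM in Control and from 28.81 to 4.67 RPKM in BF + BA. In BF it did not fall, with 11.45 and 11.77 RPKM. Its call was lost with columns rescaled without their 10 most abundant genes (-1.49, adjusted p = 0.0506 by limma). At 24 h 1 network gene was called, PPARGC1A, higher by 0.86, beside 30.6% of all genes tested called higher and 5.62% lower. With columns divided by their median PPARGC1A lost its call while 3 others were lower, beside 17.1% of all genes tested. Between groups 0 of 16 were called in each of the 3 comparisons. The shares of all genes tested were 0.851% for BF and 0.0709% for BF + BA, each against Control, and 0.0118% between them. Markers of bile duct cells (KRT19, EPCAM, SPP1 and CLDN4, 4 of 6 listed) were lower in sum at 4 h. The sum was 20.3 to 22.4 RPKM at 0 h and 9.8 to 15.7 RPKM at 4 h. Of the 4, EPCAM and CLDN4 were called lower at 4 h, beside 32.3% of all genes tested. KRT19 and SPP1 were not called, with changes of -0.46 and -0.04. In whole liver, fewer cells of a type and less RNA per cell cannot be told apart.

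**Figure D5:**
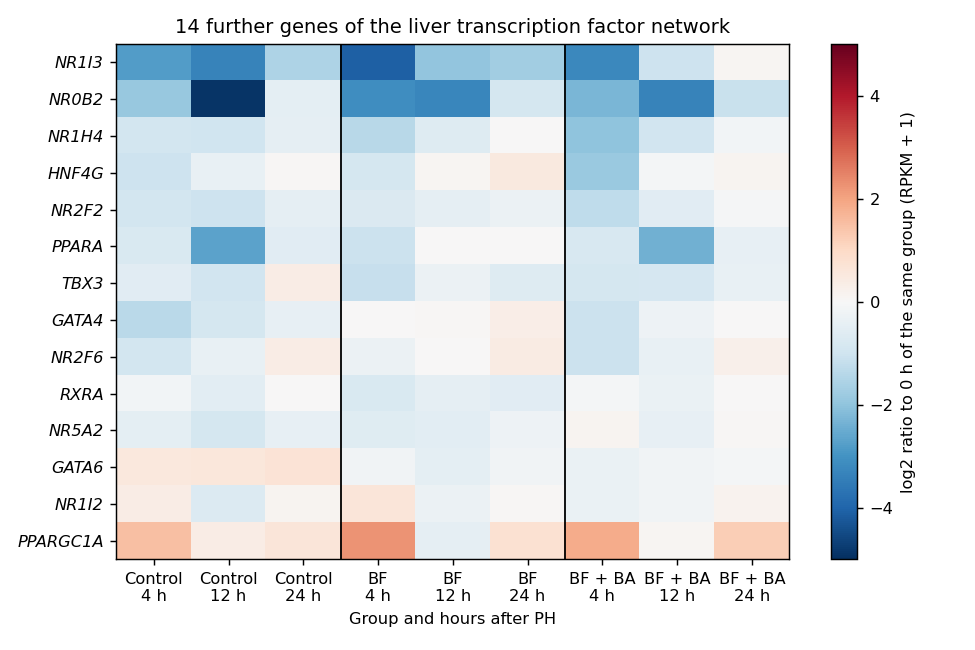
log2 ratio to the 0 h column of the same group, after adding 1 RPKM (colour scale, blue lower and red higher), for 14 of the 16 tested network genes (rows, ordered by their change at 4 h) in Control, BF and BF + BA at 4, 12 and 24 h (columns). NR1I3 and NR0B2 are the darkest blue at 4 h, and PPARGC1A is red at 4 h in all 3 groups. At 12 h NR0B2 is the darkest, and in BF + BA PPARA is darker than NR1I3.

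Upstream of CEBPB and CEBPD lies the signalling of interleukin 6 through STAT3, for which 7 of 7 listed genes were tested. At 4 h 5 were called higher and 1 lower, beside 12.9% and 32.3% of all genes tested. Without the BF + BA column at 4 h 4 were higher and 1 lower, beside 10.3% and 22.7%. SOCS3, the feedback inhibitor of this pathway, had 11.3, 12.2 and 17.4 RPKM at 0 h (Control, BF, BF + BA) and 65.1, 53.7 and 85.1 RPKM at 4 h, a rise of 2.23 (SE 0.22, adjusted p = 0.00034 by limma). IL1R1, the receptor of interleukin 1, rose by 1.98 and STAT3 by 1.68, whereas JAK1 fell by 0.59. SOCS3 thus stood high at 4 h also in BF, where CEBPB was at 36.2 RPKM. At 12 h 3 of 7 were called higher (SOCS3, IL1R1 and STAT3) and 2 lower, the larger fall being that of IL6ST at -0.53, beside 8.95% and 22.5% of all genes tested. Neither of the lower calls held under the 2 other scalings. At 24 h SOCS3 was called higher and 2 were lower, beside 30.6% and 5.62% of all genes tested. The 2 lower were the receptor gene IL6R (listed as IL6RA) at -0.50 and IL6ST at -0.47. With columns divided by their median SOCS3 lost its call at 24 h (0.45, adjusted p = 0.198 by limma). Between groups 0 of 7 were called, beside at most 0.851% of all genes tested (BF against Control). Neutrophil markers moved at the same time: S100A8 and S100A9 were both called higher at 4 h, and the sum over 4 markers was 3.11 to 22.8 RPKM at 0 h and 39.1 to 55.3 RPKM at 4 h, with MPO at or under 0.07 RPKM throughout. Their part in the rise of CEBPB, which neutrophils also express, was not tested. By group the neutrophil sum was 3.11 RPKM at 0 h, 39.1 RPKM at 4 h and 63.1 RPKM at 12 h in Control. In BF it was 22.8, 39.5 and 49.9 RPKM at these times, and in BF + BA 22.4, 55.3 and 51.35 RPKM. CEBPB was at 145, 36.2 and 66.2 RPKM at 4 h in Control, BF and BF + BA. At 12 h it was at 44.8, 31.1 and 24.3 RPKM in the same order. Macrophages also express CEBPB, and the sum over their 6 markers in Control was 218 RPKM at 0 h and 174 RPKM at 4 h. In BF this sum was 167 and 173 RPKM, and in BF + BA 161 and 175 RPKM. Their part in the level of CEBPB was not tested either.

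Of the relatives and partners of the C/EBP proteins, 3 of 5 were tested, of which 1 was called higher at 4 h (12.9% of all genes tested), 2 lower at 12 h (22.5%), and 1 higher and 1 lower at 24 h (30.6% and 5.62%). CEBPZ, which despite its name is no bZIP protein, rose by 1.16 at 4 h in 3 of 3 groups (adjusted p = 0.000283 by limma), from 10.4 to 15.4 RPKM at 0 h to 26.6 to 32.5 RPKM. TRIB1, a pseudokinase that directs C/EBPα to degradation, was unlike it: it was called lower at 12 h (-1.19) and at 24 h (-0.88). CEBPG, which dimerises with other C/EBP proteins, was lower at 12 h by 0.35, a call lost under both other scalings (-0.22 and -0.15).

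Genes that the members are known to control did not move as 1 group. Of 9 tested target genes of HNF4A and related liver factors, 2 were called lower and 1 higher at 4 h (32.3% and 12.9% of all genes tested), and 5 lower and 1 higher at 12 h (22.5% and 8.95%), with a median of -0.56 at 12 h against -0.12 for all genes tested. APOA2, an apolipoprotein, fell by 0.64, 1.21 and 1.52 at 4, 12 and 24 h, and the urea cycle gene OTC fell by 1.35 at 12 h. At 24 h TTR (transthyretin) was lower with it, at -0.74. The gene called higher at both times was APOB, by 0.41 and 0.56. Without the BF + BA column at 4 h, 1 target was lower and 0 higher at 4 h, beside 22.7% and 10.3% of all genes tested. APOB was then at 0.35 (adjusted p = 0.146 by limma). F7 and F10, clotting factors made by hepatocytes, were the only listed targets that differed between groups: F7 was at 28.2 to 43.7 RPKM in Control over the first 3 times and 50.04 RPKM at 24 h, and at 75.2 to 93.0 RPKM in BF (difference 1.2, adjusted p = 0.0222 by limma). F10 was 0.48 higher in BF than in Control (adjusted p = 0.0486). Neither was called without the BF column at 12 h, where F7 was at 1.24 (adjusted p = 0.0615 by limma) and F10 at 0.44 (adjusted p = 0.141).

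Of 7 targets of C/EBPα in metabolism, 2 were called higher at 4 h (with 12.9% of all genes tested called higher), when CEBPA itself was lower in 3 of 3 groups: TAT (tyrosine aminotransferase) rose by 1.74 and GYS2 (liver glycogen synthase) by 1.09. At 12 h 2 were called lower, ALB (albumin) at -1.12 and the gluconeogenic PCK1 at -0.94, beside 22.5% of all genes tested. Both calls were lost without the BF column at 12 h (adjusted p = 0.0715 and 0.0787 by limma) and with columns rescaled without their 10 most abundant genes. At 24 h 0 of 7 were called, beside 36.2% of all genes tested. Of 6 acute phase genes that C/EBPβ and C/EBPδ activate, 0 were called at 4 h, 3 were called higher at 12 h (LCN2 by 4.32, ORM1 by 2.18 and HPX by 1.13; 8.95% of all genes tested were called higher), and at 24 h LCN2 was higher by 3.98 and CRP lower by 0.45 (30.6% and 5.62% of all genes tested). Without the BF column at 12 h, 0 of 6 were called at 12 h and at 24 h, beside 23.8% and 33.6% of all genes tested. The changes at 12 h were then 4.67, 2.41 and 1.23 for the same 3 genes (adjusted p = 0.0621, 0.0581 and 0.0588 by limma). LCN2 at 24 h also lost its call without the BF + BA column at 4 h (adjusted p = 0.0523). LCN2 (lipocalin-2) was at 3.03 RPKM in Control at 0 h and at 808 and 1388 RPKM in BF and BF + BA, so that the groups with a fistula were already high before PH. CEBPB at that time was at 35.7 to 37.0 RPKM in all 3 groups.

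Over the 12 columns, which share groups, times and scaling, the members most alike were FOXA2 and CEBPA (Pearson r = 0.823), HNF4A and CEBPA (r = 0.764) and ONECUT1 and CEBPB (r = 0.663). The lowest r was between FOXA2 and PROX1 (-0.66), and CEBPA and CEBPB were at -0.204. Those values describe the 12 columns and carry no test.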

How the data were processed

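Poly(A) RNA of rat liver was sequenced by the authors with 50-cycle single reads, and the deposited values are RPKM with 2 decimals, in 1 table of 12 columns. The submitters' processing notes name Bowtie 0.12.2, CASAVA and the builds rn4 and mm8, without saying what each was used for; annotation and strand handling are not given in the sources used here. Each column combines 2 runs, from 4 rats in all, and the depth is unknown, so that no interval for single values could be given. RPKM divides by the total of a column, and a few abundant genes lower all others.

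Of 14692 genes, 1 had no value and 2303 were at 0 throughout. Changes were computed on log2(RPKM + 1), which understates those of weakly expressed genes, for 8459 genes that averaged 1 RPKM or more, with limma 3.58.1 in R 4.3.3 (group plus time, 6 residual degrees of freedom, adjusted over all genes tested). Groups stand in for replicates of a time, and p-values measure their spread only. In simulated columns with the real means, 78% of genes changed by 1 (log2) and 100% of those changed by 2 were found among 8459 in 4 h against 0 h, with 8 false calls. The simulated spread was the same for all genes and the change the same in each group, so these shares do not apply to single members. Comparisons with 0 h share its columns, as do those with Control. Members and lists were chosen with earlier results of these data known. Named were all members, per list and comparison up to 3 called genes with the largest change in each direction, STAT3, SOCS3 and NR1H4, and the 5 genes most like HNF4A, CEBPA, CEBPB and PROX1; markers, LCN2 levels and genes named beside these were chosen after their values were seen. Some genes selected by this rule are not reported here, though the counts of their lists include them. Promoters are RefSeq's for GRCr8, and no coordinates of the table's own build are given. Alternatives were another pseudocount, 2 other filters, 2 other scalings, a trend in the variance, left-out groups, times or columns, the fit without the block and exchanged group names. Leaving out the BF + BA column at 4 h, the alternatives for lists, those for changes within a group and the rescaled 2-fold counts between groups were chosen after seeing the data. Python 3.11.15, numpy 2.4.6, pandas 2.3.3 and matplotlib 3.10.9 were used for the rest.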

Additional observations from a re-analysis of the deposited data

Results flagged for a closer look

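In 8 comparisons a member moved away from 0 h in opposite directions in 2 groups, at least 1 apart on the log2 scale (after adding 1 RPKM); with 1 column for each group and time the differences were not tested. ONECUT1 at 24 h was 0.82 lower than at 0 h in Control and 1.37 higher in BF, a difference of -2.19, and 0.75 higher in BF + BA, a difference of -1.56. FOXA2 at 24 h was 1.12 lower than at 0 h in Control but 0.40 higher in BF and 0.03 higher in BF + BA, which are differences of -1.52 and -1.16. For both genes Control began high at 0 h, ONECUT1 at 32.1 RPKM and FOXA2 at 29.5 RPKM. FOXA3 in Control was 0.43 higher at 4 h, 0.45 higher at 12 h and 0.51 higher at 24 h than at 0 h. In BF + BA it was 0.91, 0.98 and 0.51 lower in the same order, so that Control minus BF + BA came to 1.35, 1.43 and 1.01. BF minus BF + BA for FOXA3 at 12 h was 1.04, from 0.06 higher in BF. All 4 FOXA3 differences rest on the BF + BA column at 0 h, the highest of the 12 at 64.1 RPKM.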

How the results depend on the processing

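Of 173 recomputed values for single members (exchanged names apart), 163 stayed on their side of the threshold with their direction, 10 lost their call and 0 turned. Of the 173, 65 were group effects, none called as reported, so they had no call to lose. HNF4A at 4 h and 12 h and FOXA2 at 12 h had none either. All 10 losses were among the 108 time effects. At 4 h CEBPB kept its call in 7 of 12 settings, ONECUT1 in 9 and FOXA2 in 11. CEBPA at 24 h kept it in 11. Of 156 counts and ratios, 147 stayed and 9 moved. Members called at 4 h were 4 as reported, 2 (CEBPA and FOXA2) without the BF + BA column at 4 h, and from 1 to 3 with a group left out, 1 (CEBPA) without BF + BA. At 24 h, 1 was called as reported, 3 with columns divided by their median, and from 0 to 1 with a group left out, 0 without Control. With columns divided by their median, members 2-fold from 0 h came to 3 instead of 1 in Control at 24 h. By the same scaling they came to 0 instead of 1 in BF at 24 h. In BF + BA at 4 h they came to 4 instead of 3, CEBPB being added. Members 2-fold apart between BF + BA and Control at 4 h were 0 instead of 1 under this scaling. Rescaling without the 10 most abundant genes also gave 0 between BF + BA and Control at 4 h. It gave 0 instead of 1 in BF at 12 h against 0 h, where CEBPA was lost. The cause was not tested. Without the replicate block, CEBPB at 4 h lost its call (adjusted p = 0.0706 by limma), as it did with no filter on low values (0.0812), and no other member did. The block is the group, or the time, and pairs no animals. Exchanging the group names kept 5 of 5 values. It only swaps the results of BF and BF + BA against Control, where no member was called, so it cannot tell which names are right. A further 34 pairs of member and comparison, with unadjusted p of at least 0.1 and at most 0.47 in size, gave 24 that changed sign under an alternative. Genes called over the whole table ranged from 2141 to 4123 at 4 h (3820 as reported), 768 to 2956 at 12 h (2657) and 688 to 3393 at 24 h (3062). Exchanged names apart, the range was 1 to 84 for BF (72) and 0 to 16 for BF + BA (6) against Control, and 0 to 3 between them (1). Depth is unknown, and differences between rats could not be measured.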
